A study of Mus musculus with 4 samples.

Results

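The genes described here act in the piRNA pathway and in the chromatoid body, the RNA granule of male germ cells. They were chosen by name, as 31 listed genes, and not by any measured value. Probe sets were assigned to them through the gene symbols of the array platform, and probe sets annotated to several genes were dropped. In this way 29 of the 31 genes had at least 1 probe set, out of 18193 genes named on the array, and 28 had a probe set bright enough to be tested. No probe set was assigned to Tdrd6 or Fkbp6, so their signals were not analysed here. Piwil4 had 2 probe sets, and both lay under the brightness filter.

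The samples were whole testes of 8-week-old male mice of the C57BL/6J strain, either wild type (2 arrays) or Taf7l knockout (2 arrays), which the series design calls littermates. Taf7l encodes a germ cell-enriched relative of a subunit of the general transcription factor TFIID. The labels do not say how the allele was made, and they name no difference between the groups other than genotype. The second knockout array carries number 2 in its title and number 1 in its description, so separate animals are not certain, and the spread behind each p-value may be only technical. The median mouse probe set signal ran from 45.2 to 45.7 over the 4 arrays. The summed signal was lower on each knockout array (37218500 and 38404600) than on either wild type array (40183100 and 39983900). Taf7l itself had signals of 829 and 818 in wild type and 80.6 and 72.5 in knockout (limma adjusted p = 0.0033), although whether its probes lie in the mutated stretch was not checked here. Wild type replicate 2 stood apart in adipocyte markers: the mean log2 signal of the 5 measured was 9.25 there, against 7.28 in wild type replicate 1 and 7.54 and 8.18 in the knockout. It stood apart likewise in the 3 measured epididymis markers, at 7.61 against 6.10, 5.65 and 5.81.

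PIWI proteins bind piRNAs, short RNAs that guide them to transposon transcripts and, from the pachytene stage on, to other RNAs of the germ cell. Their precursors are cut, loaded and trimmed at the mitochondrial surface, and Tudor proteins gather the PIWI proteins by binding methylated arginines in their tails. In round spermatids these proteins collect in the chromatoid body with RNA helicases, microRNA proteins and factors of nonsense-mediated decay. Loss of many of these genes blocks spermatogenesis in mice.

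No measured gene of this set passed the test between genotypes. At the brightest probe set of each gene, 0 of 28 were called by limma (adjusted p under 0.05 over all probe sets), against 1.74% of all 12241 genes, and adjusted p ran from 0.0602 to 0.987. Before adjustment, 10 of the 28 had a limma p under 0.05, 4 higher and 6 lower in the knockout, against 27.9% of all genes. Differences in log2 signal, knockout minus wild type, ran from −0.53 for Mybl1 to 0.50 for Ago2, and 20 of 28 were smaller than 0.20 in size. Over all genes, 41.6% differed at least as much as Gtsf1 (−0.18) in either direction, and 35.1% at least as much as Prmt5 (−0.21). The unadjusted 95% intervals of all 28 lay between −0.86 and 0.75, so none reached a 2-fold change in either direction.

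In the deposited signals 18 of 28 were lower in the knockout, with a median difference of −0.04, against 60.7% lower and a median of −0.05 over all genes, but after quantile normalization 10 of 28 were lower, against 50.4% of all genes, and the medians were 0.05 and 0.00. The 2 genotypes did not overlap in 16 of the 28 genes, against 58.3% of all genes. Out of the 28, 10 did not overlap and were lower, against 38.7% of all 12241 genes. Another 6 of the 28 did not overlap and were higher, against 19.6% of all genes. Without wild type replicate 2, 18 of 28 were again lower (median −0.056) against 59.8% of all genes, and 5 had an unadjusted limma p under 0.05, against 17.0%. No call could be read there, since limma called 0 of all 22519 probe sets without that array. In 14 of the 28 the gap between the arrays of 1 genotype exceeded the difference between genotypes. The sign of the difference was kept in 17 of 28 under both other scalings and with each array left out in turn. Neither of these counts was made over all genes. Whole testis was measured, so fewer cells of a type and less RNA per cell cannot be told apart.

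**Figure D1:**
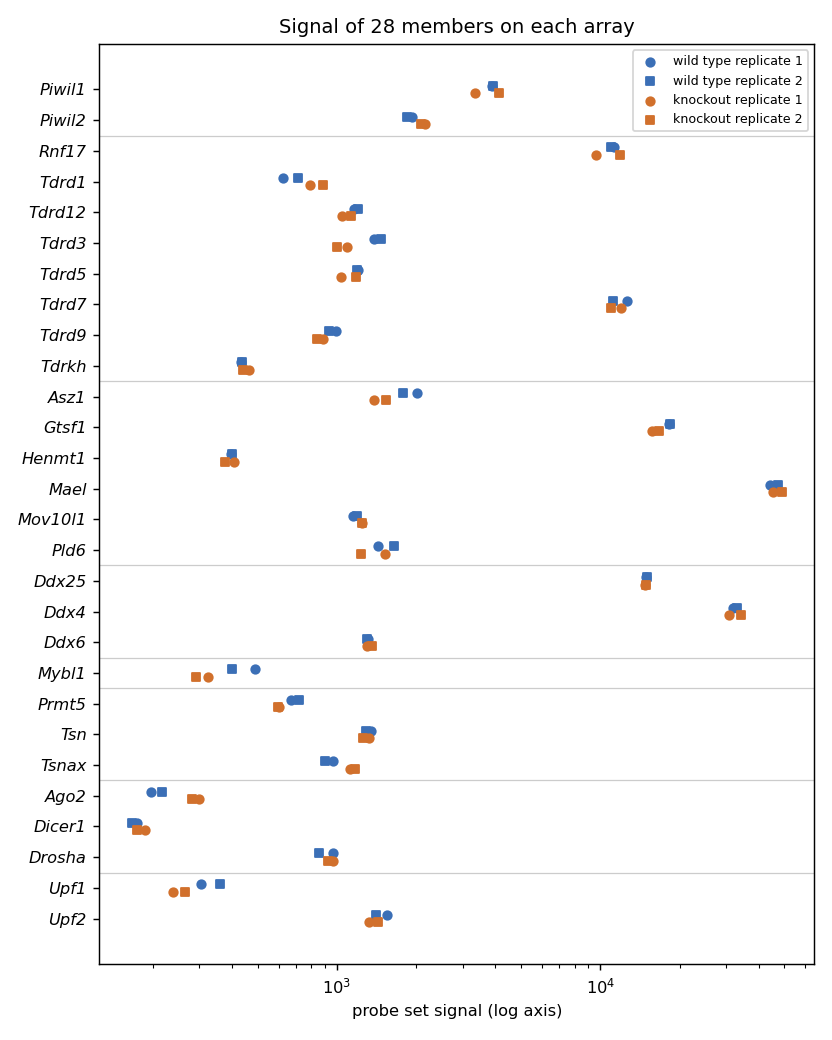
Signal of the brightest probe set (log axis) for the 28 measured genes on each of the 4 arrays, wild type in blue and knockout in orange, circles for replicate 1 and squares for replicate 2. Signals are to be compared within a row only. Colours do not overlap in 16 of the 28 genes, among them Mybl1, Ago2, Tdrd3, Upf1, Asz1, Tdrd1 and Tsnax. They lie on top of each other for Ddx4, Ddx6 and Mael.

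**Figure D2:**
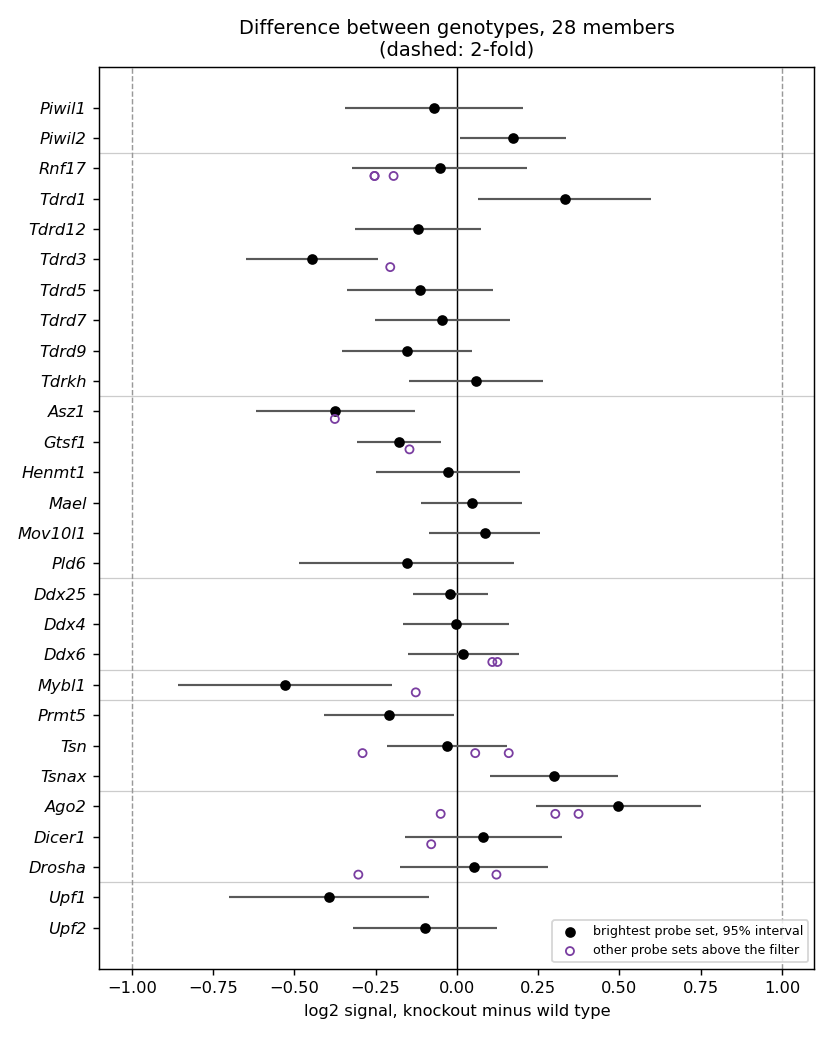
Difference in log2 signal, knockout minus wild type, with its unadjusted 95% interval at the brightest probe set (black) and the differences at other probe sets above the filter (open circles). The dashed lines mark a 2-fold change, and no interval reaches them.

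Of the PIWI proteins, Piwil1 (MIWI) carries the pachytene piRNAs of spermatocytes and spermatids. Its signal was 3868 and 3929.8 in wild type and 3351 and 4117 in knockout. The knockout arrays lay on either side of the wild type pair and differed from each other by 0.30 on the log2 scale, more than the genotypes did (−0.07, SE 0.11, limma adjusted p = 0.74). Piwil2 (MILI) had 1921 and 1840.1 in wild type and 2150.4 and 2091 in knockout. Every knockout signal was above every wild type signal, by 1.13-fold on average (log2 0.17, SE 0.064), without passing (limma adjusted p = 0.18). Piwil4 (MIWI2), the nuclear PIWI protein of fetal germ cells, had signals of 9.70 to 11.0 at its brighter probe set. These signals lay well under the filter at 45.8. Whether they rise above background was not examined, and no difference is read from them.

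Among the Tudor proteins, 6 of 8 were lower in the deposited signals (median −0.08) and 4 of 8 after quantile normalization (median 0.01). The lowest was Tdrd3, a reader of methylated arginine that also works outside germ cells with a topoisomerase. Tdrd3 had 1379.8 and 1468 in wild type and 1088 and 1003 in knockout. The groups did not overlap, and its 1.36-fold lower mean (log2 −0.45, SE 0.079) came closest of the whole set to the threshold, at a limma adjusted p = 0.0602. A dimmer Tdrd3 probe set, at 172 and 159 against 136 and 152, differed by −0.21. Tdrd3 was called when 1 probe set per gene was tested (adjusted p = 0.0427) and when only probe sets above the 75th percentile of signal were (adjusted p = 0.0125), settings that called 6.58% and 22.6% of all genes.

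Tdrd1, a granule scaffold that binds MILI, differed the other way. It had 624 and 710.5 in wild type and 792 and 885 in knockout. The lowest knockout signal was above the highest wild type signal, and the mean was 1.26-fold higher (log2 0.33, SE 0.10, limma adjusted p = 0.14).

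The other Tudor genes had smaller differences. Tdrd9, a Tudor protein with a helicase domain that works with MIWI2, was at 995 and 929 against 888 and 842 (log2 −0.15). Tdrd12, which also joins a helicase to Tudor domains, was at 1164 and 1202 against 1046 and 1132 (−0.12). Tdrd5, needed for the chromatoid body, was at 1197 and 1196 against 1034 and 1180.1 (−0.11). These 3 did not overlap between genotypes, yet none of their 95% intervals left out 0. After quantile normalization their differences were −0.06, −0.01 and −0.01. Tdrkh, the mitochondrial Tudor partner of PIWI proteins, was at 431 and 435 against 464 and 439 (0.06). Tdrd7, another chromatoid body component, was at 12618 and 11133 against 11972 and 11019, with overlapping groups (−0.05).

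Rnf17, which joins RING and Tudor domains, was measured by 4 probe sets that were all lower in the mean. The brightest had 11272 and 11016 in wild type and 9672 and 11932 in knockout (log2 −0.05), and the other 3 differed by −0.25, −0.19 and −0.25. In all 4 probe sets the second knockout array was above the first, and at the 3 dimmer ones the groups did not overlap. The smallest limma adjusted p of the 4 was 0.25, and the brightest probe set was 0.04 higher after quantile normalization.

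Of the 6 measured biogenesis factors, 4 were lower in the deposited signals and 3 after quantile normalization. Asz1 (GASZ), a scaffold on the mitochondrial surface, was lower at each of its probe sets. The brighter had 2009 and 1779.6 in wild type and 1379.8 and 1541 in knockout, and the other had 635 and 613 against 462 and 500.1. Neither overlapped between genotypes, and the means were 1.30-fold lower at each (log2 −0.37, SE 0.096, limma adjusted p = 0.0965, and log2 −0.38, SE 0.084, limma adjusted p = 0.0779). Asz1 was called above the 75th percentile of signal (adjusted p = 0.0286), and its difference at the brighter probe set was −0.25 after quantile normalization.

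Gtsf1, a zinc finger cofactor of PIWI proteins, was also lower at each of its probe sets. The brighter probe set had 18299 and 18383 in wild type and 15773 and 16683 in knockout, a 1.13-fold lower mean (log2 −0.18, SE 0.051, limma adjusted p = 0.12). The other gave 18182 and 18083 against 16113 and 16667 (log2 −0.15). The wild type arrays were nearly alike and all knockout signals lay under them, by an amount that shrank to −0.09 after quantile normalization.

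Pld6, the mitochondrial nuclease that cuts piRNA precursors, had 1428 and 1642 in wild type and 1528 and 1238 in knockout. These groups overlapped, and the difference of −0.16 was smaller than the gap of 0.30 between the knockout arrays. Mov10l1, the helicase that feeds precursors to that nuclease, was at 1150.4 and 1195 against 1247 and 1239.8. Its groups did not overlap, at a difference of 0.08 (0.19 after quantile normalization, limma adjusted p = 0.19). Henmt1, which methylates the ends of finished piRNAs, was at 396 and 399.7 against 406 and 375 (−0.03). Mael, which acts in transposon silencing, was at 44027 and 47264 against 45306 and 48969 (0.05). Both had overlapping groups.

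The helicases of the granule had the 3 smallest differences of the set in the deposited signals. Ddx4, the mouse Vasa protein and a general germ cell marker, had 31820.3 and 33139 in wild type and 30791 and 34123 in knockout, with the knockout arrays on either side of the wild type pair. Its 95% interval ran from −0.17 to 0.16. Ddx25, a testis helicase that moves mRNAs to the chromatoid body, had 14935 and 15081 against 14756 and 14851, with an interval from −0.13 to 0.10 that was the narrowest of the set. Ddx6, a helicase of general processing bodies, had 1316 and 1303 against 1299 and 1358, with an interval from −0.15 to 0.19. After quantile normalization the 3 differences were 0.07, 0.05 and 0.12.

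Mybl1 (A-MYB), the transcription factor that switches on pachytene piRNA precursors and many piRNA pathway genes, had the largest difference of the set. Its brightest probe set had 489.5 and 401 in wild type and 324 and 291 in knockout. All wild type signals were above all knockout signals, and the mean was 1.44-fold lower (log2 −0.53, SE 0.13, limma adjusted p = 0.0894). Of all genes, 5.03% differed at least as much in either direction. The dimmer Mybl1 probe set had 219 and 258 against 230.3 and 205, with overlapping groups and a difference of −0.13. Mybl1 was called above the 75th percentile of signal (adjusted p = 0.0253), and quantile normalization left −0.48 (adjusted p = 0.13). With 1 array left out the difference ran from −0.67 to −0.38 and the adjusted p from 0.19 to 0.36.

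Because Mybl1 was the lowest gene of the set and encodes a known activator of many piRNA pathway genes, the promoters of the set were searched for the core letters of a MYB site, AACGG, on either strand (CCGTT on the other). This search was chosen after the differences were seen. The window was the 250 bases before each RefSeq start on GRCm38.p6. Promoter entries matched 24 of the 31 genes, with 32 starts. Fkbp6 and Piwil4 were among the matched genes, although neither had a tested probe set. The starts of Fkbp6 held the letters and those of Piwil4 did not. The letters occurred at 12 of these 32 starts (37.5%), against 19.8% of 12676 starts of genes with a tested probe set and 14.5% of all 32851 starts. The windows were also richer in G and C, with a median of 63.0% against 59.2% and 52.4%. The TATA box letters TATAAA, searched likewise on either strand, occurred at 2 of 32 starts (6.25%), against 6.87% and 12.4%.

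For 5 of the measured genes the match closest to a start that leaves 10 bases on each side is shown, to let the letters behind the count be seen. The capitals mark the match, and each is written 5′ to 3′ on the strand of its gene.
Piwil1 (chr5:128736097-128736121, plus strand): gtccacctcgCCGTTaacccagagg
Ddx4 (chr13:112652316-112652340, minus strand): gcacgtgcagCCGTTtaagccgcgt
Ddx25 (chr9:35558603-35558627, minus strand): cggctggtcaAACGGaaagctcgcg
Mov10l1 (chr15:88982767-88982791, plus strand): tctcgtggctAACGGtcgagcctcg
Pld6 (chr11:59787237-59787261, minus strand): catggccctcAACGGctctcagatc

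The letters were found for 9 measured genes, these 5 among them. Differences of the 9 ran from −0.16 to 0.08 with a median of −0.07. The 13 measured genes whose windows held no match ran from −0.45 to 0.33 with a median of −0.03. The other 6 measured genes, Mybl1, Ago2, Tsnax, Piwil2, Ddx6 and Rnf17, were not searched, and they ran from −0.53 to 0.50 with a median of 0.10. A match in these letters is a description of sequence and does not show a site in use.

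Translin (Tsn) and its partner Tsnax form an RNA-binding complex with nuclease activity. Tsnax had 965 and 899 in wild type and 1118 and 1174 in knockout. The groups did not overlap, and the mean was 1.23-fold higher (log2 0.30, SE 0.077, limma adjusted p = 0.0969). It was called above the 75th percentile of signal (adjusted p = 0.0397), and its difference was 0.41 after quantile normalization. Tsn had 1348 and 1288 against 1329 and 1252 at its brightest probe set (−0.03), and its other 3 differed by 0.16, 0.06 and −0.29, so its probe sets did not share a direction. Prmt5, the methyltransferase that marks PIWI proteins for Tudor binding, had 670.2 and 716 against 602 and 597. The knockout signals were lower on each array, by 1.16-fold in the mean (log2 −0.21, SE 0.078, limma adjusted p = 0.19).

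The microRNA genes were all 3 higher at the brightest probe set. Ago2, the slicing Argonaute, had 196 and 217 in wild type and 300.4 and 282 in knockout. The groups were well apart, and the mean was 1.41-fold higher (log2 0.50, SE 0.10, limma adjusted p = 0.0694), the largest difference of the set in this direction. Its other probe sets did not all follow: the next brightest had 210.3 and 209.8 against 208 and 197 (−0.05), and the dimmest 2 differed by 0.30 and 0.37 with overlapping groups. The mean of the 4 Ago2 probe sets differed by 0.28.

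Dicer1, which cuts microRNA precursors, had 175 and 166 against 186 and 175 (0.08), with −0.08 at its other probe set. Drosha, the nuclear enzyme of the same pathway, had 966 and 855 against 963 and 924 (0.05). A dimmer Drosha probe set had 330.5 and 329 against 249 and 287 (−0.30), and the dimmest differed by 0.12. Thus each of these 3 genes had a probe set of the opposite sign.

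Of the decay factors, Upf1, the helicase of nonsense-mediated decay, had 304 and 359 in wild type and 238 and 266 in knockout. Its groups did not overlap, and the mean was 1.31-fold lower (log2 −0.39, SE 0.12, limma adjusted p = 0.13), with −0.36 after quantile normalization. Its partner Upf2 had 1551 and 1401 against 1321 and 1436. These overlapped, at a difference of −0.10.

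Over all 46 probe sets above the filter that were assigned to these genes, 29 were lower, 17 were higher and 0 were called by limma, with a smallest adjusted p = 0.0602, against 1.39% of all probe sets. At an unadjusted limma p under 0.05 there were 14 of the 46, against 24.7% of all probe sets. Of the 10 genes with several such probe sets, 6 kept 1 sign at all of them (Asz1, Ddx6, Gtsf1, Mybl1, Rnf17 and Tdrd3). The other 4 were Tsn, Ago2, Dicer1 and Drosha.

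**Figure D3:**
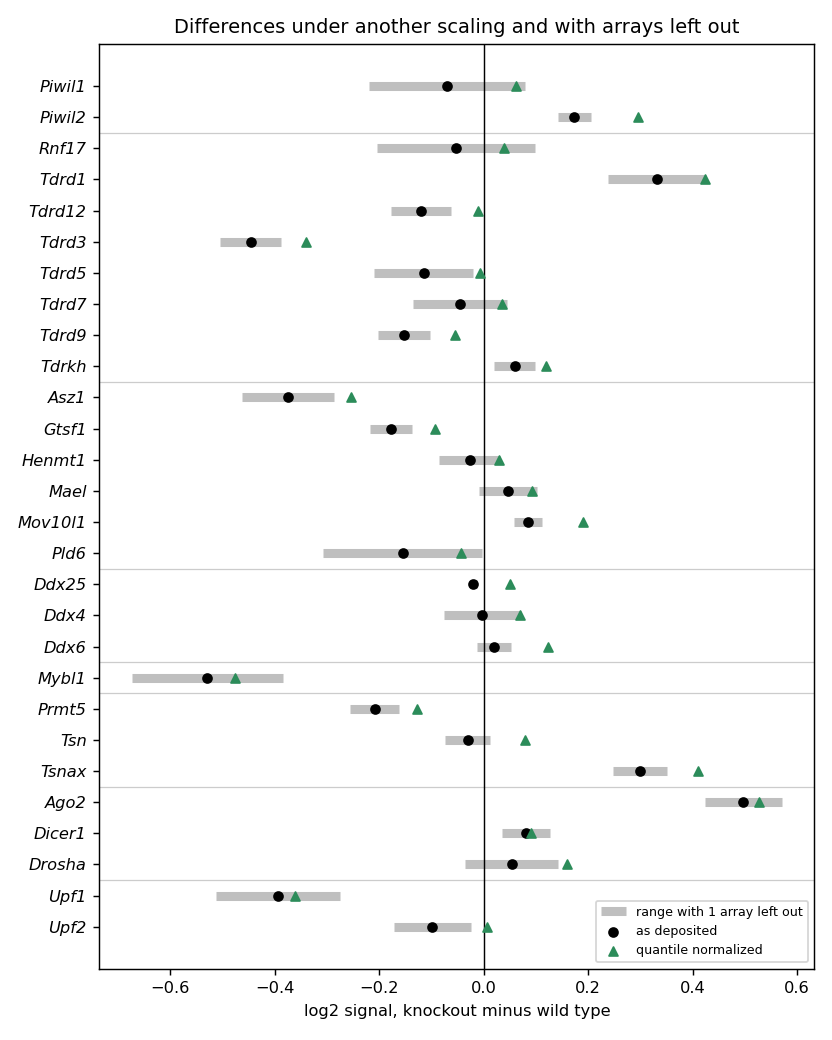
Difference in log2 signal, knockout minus wild type, for the 28 genes as deposited (black), after quantile normalization (green triangles) and as the range with 1 array left out (grey bars). All 28 green triangles lie to the right of the black points, and 8 of the 28 genes change sign, Piwil1 and Rnf17 among them. The ranges of Mybl1, Tdrd3, Asz1, Ago2, Tdrd1 and Tsnax stay on 1 side of 0. So do those of genes with smaller differences, such as Ddx25 (−0.03 to −0.01), Tdrkh (0.02 to 0.10) and Upf2 (−0.17 to −0.02). Other ranges cross 0, those of Piwil1 and Mael among them.

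Other genes of these pathways, on lists written from general knowledge, also held no call at their brightest probe sets: 0 of 49 measured genes passed (limma, background 1.74%), with a median difference of −0.02 (0.01 after quantile normalization). Of the 49, 10 had an unadjusted limma p under 0.05, against 27.9% of all genes. The counts of each list below hold for the deposited signals, where 60.7% of all genes were lower in the knockout. Single lists were not examined after quantile normalization. Of 13 further piRNA genes, 7 were higher and 6 lower (median 0.00). Those with the smallest p were Morc1, a chromatin protein of transposon silencing, at 243 and 223 against 319 and 304 (log2 0.42, limma adjusted p = 0.0789). Dnmt3l, the cofactor of germline DNA methylation, was at 350.4 and 294 against 471 and 643 (log2 0.78, limma adjusted p = 0.081). Both were higher on each knockout array than on either wild type array.

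Of 9 further microRNA genes, 5 were higher and 4 lower (median 0.11). Dgcr8, the partner of Drosha, was at 394 and 400.0 against 521 and 523 (log2 0.39, limma adjusted p = 0.0669). Tarbp2, a partner of Dicer1, was at 3028 and 2937 against 2528 and 2365 (log2 −0.29, limma adjusted p = 0.081). Neither overlapped between genotypes, and they differed in opposite directions.

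Of 16 genes of processing bodies and of chromatoid body RNA proteins, 12 were lower and 4 higher (median −0.15), against 60.7% of all genes lower. The decapping cofactor Dcp1b came nearest to a call, at 1032 and 1056 against 769.8 and 766 (log2 −0.44, SE 0.069, limma adjusted p = 0.0524). Kif17, a kinesin motor, was at 2987 and 2694 against 1932 and 2131 (log2 −0.48, limma adjusted p = 0.0602). Knockout signals of both lay under all wild type signals.

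Of 5 further decay genes 4 were lower (median −0.09), with Smg9 at −0.24 (limma adjusted p = 0.18) and Smg5 at −0.17 (0.22). Of 6 genes around Prmt5, 4 were lower (median −0.06), with its partner Wdr77 at −0.19 (0.18) and Riok1 at −0.22 (0.23).

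Marker genes of testis cell types were measured on the same arrays, in the deposited signals, where 60.7% of all genes were lower in the knockout. Their differences after quantile normalization were not examined, so the counts below hold for the deposited scaling only. Of the listed markers limma called Calr3 lower and Cyp17a1 higher. Meiotic prophase markers had 7 of 10 higher (median 0.04) and spermatogonial markers 3 of 5 higher (median 0.07). Pachytene markers were lower in 8 of 8 (median −0.08), with a mean log2 signal of 13.13 and 13.14 in wild type and 12.94 and 12.93 in knockout. Their differences were uneven. They ran from −0.59 (Calr3), −0.48 (Ccna1) and −0.35 (Hspa2) to −0.02 (Ldhc) and −0.01 (Adam3). Spermatid markers were lower in 10 of 11 (median −0.15), at 14.49 and 14.44 against 14.24 and 14.29. Sertoli markers were higher in 7 of 10 (median 0.12), macrophage markers in 8 of 8 (median 0.17), and the 4 measured Leydig markers in 4 of 4 (median 0.34, mean log2 signal 11.16 and 11.14 against 11.42 and 11.50). The part of cell composition in the differences of the piRNA and chromatoid body genes was not tested.

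**Figure D4:**
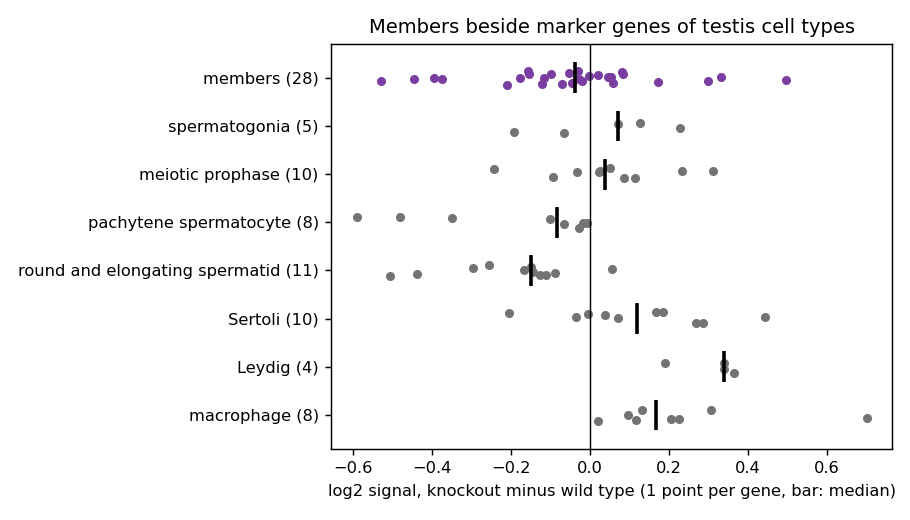
Difference in log2 signal, knockout minus wild type, of the 28 piRNA and chromatoid body genes (purple) beside marker genes of testis cell types (grey), 1 point per gene at its brightest probe set, with the number of genes in brackets and black bars at the medians. The purple points spread from −0.53 to 0.50 around a median of −0.04, between the medians of the meiotic prophase (0.04) and pachytene markers (−0.08).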

How the data were processed

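The authors deposited 1 table of intensity, the linear signal of 45101 probe sets on 4 arrays, and the submitters' processing notes name MAS5, with no version or scaling target. Exact values recur between arrays (2385 between wild type replicate 2 and knockout replicate 2), so the scaling behind the signals is not settled. Gene names came from the platform annotation and were updated through RefSeq, which matched 34741 of 34945 probe sets with 1 symbol. Signals were taken to log2 without rescaling. Probe sets with a mean signal of at least 45.8, the median over mouse probe sets, were kept, 22519 in all. The comparison of genotypes used limma (version 3.58.1, under R 4.3.3; eBayes with trend, two-sided, Benjamini-Hochberg over the kept probe sets), which called 312. The fit had 2 residual and 3.17 prior degrees of freedom and was tested on simulated data. With 2 arrays a group the smallest p that exact permutation allows is 0.333, and the number of arrays limits the precision. A gene is given at its brightest probe set by mean signal, and others are named where they differ in sign or call. From each list of other pathway genes, the called genes or else the 2 with the smallest p are named. The genes, lists and tests were chosen with earlier results of these data known. The alternatives tried are named with their values in the closing section; an offset of 16 and a robust prior were also run. Promoter sequences are from RefSeq (GRCm38.p6), and no probe set coordinates were used.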

Additional observations from a re-analysis of the deposited data

How the results depend on the processing

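The 312 calls over all probe sets became 148 with quantile normalization, 646 with median centring, 0 with no filter (6192 at an unadjusted limma p under 0.05), 36 without trend, 2375 with the 75th percentile filter, 2628 at an adjusted p under 0.10 and 806 with 1 probe set per gene. Calls among the piRNA and chromatoid body genes went from 0 to 4 of 25 with the 75th percentile filter, which left Ago2, Dicer1 and Upf1 untested, 5 at an adjusted p under 0.10 and 1 with 1 probe set per gene, against 22.6%, 13.8% and 6.58% of all genes. Calls among the other pathway genes went from 0 to 1 of 49 with median centring, against 3.59% of all genes. They were 7 of 34 with the 75th percentile filter (22.6% of all genes) and 7 of 49 at an adjusted p under 0.10 (13.8%). With 1 probe set per gene they were 3 of 49 (6.58%), and with the mean of probe sets 3 of 49 (7.88%). The median difference of −0.038 became 0.045 with quantile normalization. With each array left out in turn, the lone array of its group being assumed to vary like the other group, calls over all probe sets, among the 28 genes and among the other pathway genes were 0 (3084 to 5500 probe sets at an unadjusted limma p under 0.05), and the median of the 28 genes ran from −0.056 (without wild type replicate 2) to −0.018. The replicate numbers were treated as shared labels only. Deviations of same-numbered arrays correlated at 0.03, but 1 value over all kept probe sets cannot show whether part of them was paired. With the replicate block, 541 probe sets and 0 of the 28 genes were called. Where no probe set at all was called, the 0 among these genes says nothing about stability. The causes were not tested.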
